A study of Homo sapiens with 10 samples.

Results

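The step from 10 to 20 µM olaparib is described here from the single-cell libraries of populations T20 and T10 of the human line Kuramochi, chosen by the dose in the cell names: 1461 T20 cells and 1986 T10 cells, 3447 of the 18209 cells of the series. Kuramochi is an established ovarian carcinoma line, epithelial and BRCA2-mutant per the labels, and all 10 populations share that genotype and the same insulin-supplemented RPMI medium. T20 was exposed to 20 µM and T10 to 10 µM olaparib until confluency, as later steps of 1 serial dose escalation from untreated cells, and no agent other than olaparib is labelled. Each population is 1 inDrop library, a droplet method that counts transcripts by molecular identifiers (UMIs), so every value below compares 2 libraries, the difference between doses cannot be told apart from a difference between libraries, and no test was possible.

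Olaparib blocks PARP enzymes and traps PARP1 on broken DNA, and cells that lack BRCA2 repair the resulting breaks poorly. Broken or misplaced DNA in the cytoplasm can switch on interferon genes, a group led by secreted and membrane proteins first known from antiviral defence. Carcinoma cells of the ovary can also carry a partly mesenchymal programme, in which fibrillar collagens, adhesion molecules and the contractile apparatus of actin and myosin are expressed beside keratins.

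UMIs were summed over the cells of each library and expressed as CPM, counts scaled by the library total. A difference is log2(CPM + 10) of T20 minus that of T10, a scale that understates changes of low genes. A measured gene reached 50 CPM in T20 or T10 and 100 UMIs in the 10 populations together. Genes past 2-fold on this scale are called higher or lower. Folds are plain ratios of CPM, and their exact 95% intervals cover counting error only. The libraries held 4253488 UMIs in T20 and 4215856 in T10, with medians of 2742 UMIs per T20 cell and 1979 per T10 cell. T20 and T10 shared 20 cell barcodes, none with the same UMI total. The share of cells under 1000 UMIs was 24.6% in T20 and 14.7% in T10, and mitochondrial transcripts made up 7.32% of UMIs in T20 and 8.14% in T10.

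The T10 library stood apart from the other populations in the length of its transcripts. Genes in the shortest quartile by transcript length held 49.2% of the measured UMIs in T20, the highest of the 10 populations, and 39.6% in T10, the lowest. Genes in the longest quartile held 14.3% in T20 and 19.3% in T10, where the share was the highest of the 10. The median difference between the libraries ran from 0.47 in the shortest decile of genes to -0.43 in the longest decile. The part of transcript length in the results was not tested, and differences are given below also relative to the median of measured genes in the same decile of transcript length, a value called length-relative and added after the data were seen.

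**Figure D1:**
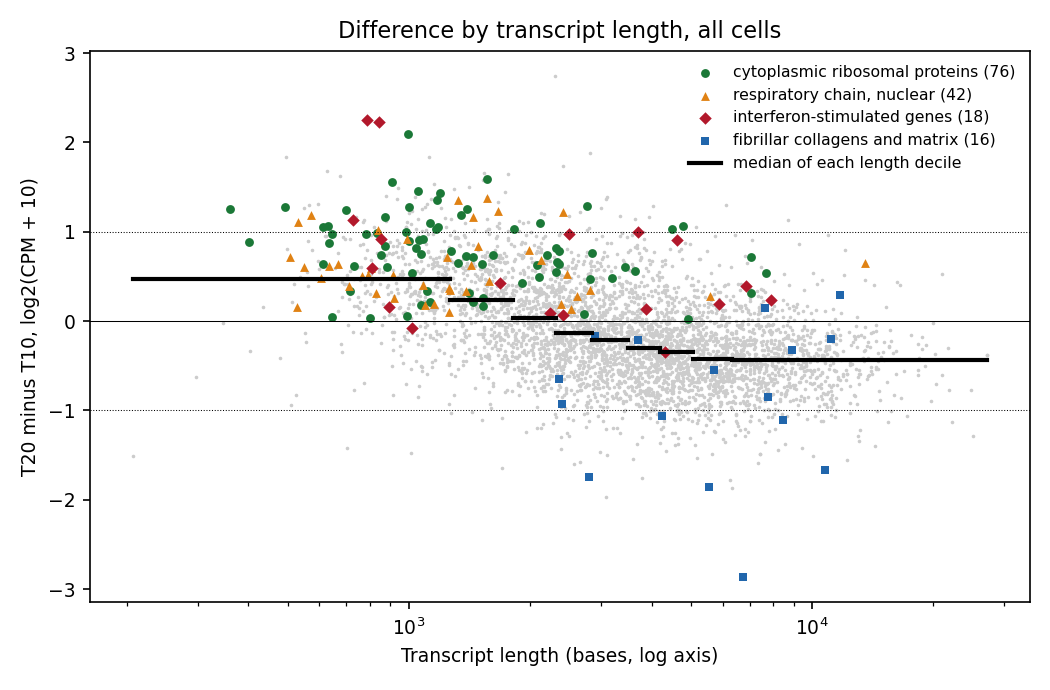
Difference between T20 and T10 over all cells (T20 minus T10, log2(CPM + 10)) against transcript length in bases on a log axis, 1 point per measured gene. Black lines are the medians of length deciles, which fall from 0.47 to -0.43, dotted lines mark 2-fold, and coloured points are members of 4 gene lists.

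Over all cells, 118 of 4218 measured genes were higher in T20 (2.8%) and 163 were lower (3.86%), with a median difference of -0.21. The split depended on scaling. With TMM factors, which put the median at -0.031, 204 genes were higher and 73 lower, so that 73.6% of calls were higher with these factors and 42.0% with the library total. At all 281 called genes the interval of the fold excluded 1. Set beside the other 8 steps of the escalation by the share of genes past 2-fold in either direction, the step from T10 to T20 (6.66%) was of middle size. In order of dose, the shares were 12.4% for T1 over C, 1.97% for T2.5 over T1, 2.45% for T5 over T2.5, 7.83% for T10 over T5, 7.07% for T40 over T20, 2.23% for T80 over T40, 9.22% for T160 over T80 and 2.81% for T320 over T160. The steps into T10, T20 and T40 were thus all above 6%, while those into T5 and T80 were under 3%. Of the genes named below as past 2-fold over all cells, COL4A5, COL5A1, COL6A1, ITGB1, LAMA5, TIE1 and USP22 were no longer so with TMM factors. FANCA was not called with TMM factors either, as the break repair list then had 0 genes lower. Relative to genes of like length, ALDOA, ANXA2, CALD1, COL4A5, COL5A1, COL6A1, CXCL1, FANCA, FTH1, FTL, HLA-C, HSPG2, IFI27, ITGB1, KIF20A, LAMA5, RPLP1, S100A10, S100A2, SLPI, TIE1, TPI1 and USP22 were no longer so.

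Part of the cells carry a state in the authors' metadata table, whose assignment is not described in the sources used here. It listed 640 of the T20 cells (43.8%, exact interval 41.2 to 46.4%) and 1030 of the T10 cells (51.9%, 49.6 to 54.1%), all in states S2, S3 or S4. S2 held 417 listed T20 cells (65.2%) and 688 listed T10 cells (66.8%), a difference of -1.64 points with an interval of -6.43 to 3.10. S3 held 149 listed T20 cells (23.3%) and 146 listed T10 cells (14.2%), a gain of 9.11 points (5.16 to 13.2). S4 held 74 listed T20 cells (11.6%) and 196 listed T10 cells (19.0%), a difference of -7.47 points (-10.9 to -3.86). S2 therefore stayed the main state on both sides of the step, with S3 taking a larger and S4 a smaller share in T20. In the populations around them, listed T5 cells were 46.0% S1 and 54.0% S2, and listed T40 cells were 24.1% S3 and 75.9% S4, so the lower S4 share in T20 lay between higher S4 shares at 10 and 40 µM. These intervals cover the counting of cells in 1 library a population and not the spread between cultures.

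**Figure D2:**
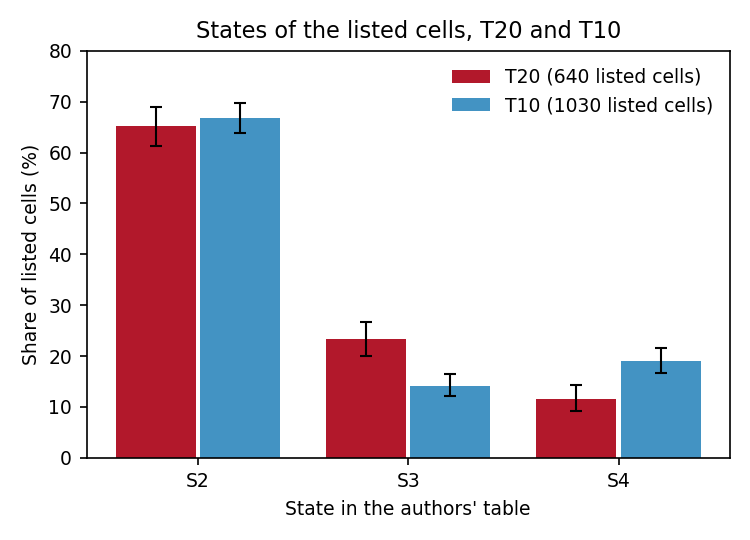
Share of listed cells in each state (%), T20 red and T10 blue, with exact binomial intervals from 640 T20 and 1030 T10 cells. S2 is near 66% in both, S3 is 23.3% in T20 against 14.2% in T10, and S4 is 11.6% in T20 against 19.0% in T10.

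Within S2 cells, 142 of 4189 measured genes were higher in T20 (3.39%) and 260 lower (6.21%), with a median of -0.22. With TMM factors there were 269 higher and 129 lower, so that 67.6% of calls were higher with these factors and 35.3% with the library total. Within S3 cells, 192 of 4326 were higher (4.44%) and 426 lower (9.85%), and within S4 cells, 163 of 4245 were higher (3.84%) and 384 lower (9.05%). Cells that the table does not list gave 149 higher (3.46%) and 178 lower (4.13%) of 4311. The S3 and S4 sums rest on fewer cells, and for 364 of the 384 genes lower in S4 the interval of the fold excluded 1. The change of each gene over the listed cells was divided into a part due to the mix of states and a part within states. The within-state part was the larger for all 281 genes called over all cells, with a median of 100.3% of the listed change. With the state shares of T20 as weights it was the larger for 279, the exceptions being TGFBI and VCAM1. Of the listed UMIs in T20 and T10, S2 held 66.1 and 65.1%, S3 22.8 and 14.5% and S4 11.1 and 20.5%. No share differed by 2-fold, so the mix alone could not give a 2-fold change among listed cells. Choosing genes by the 2-fold rule thus largely fixed this outcome in advance.

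Interferon-stimulated genes were among the most raised genes of the step. ISG15, a ubiquitin-like protein that is attached to other proteins after interferon, had 281 CPM in T20 and 51.2 CPM in T10 cells (5.48-fold higher in T20, interval 4.74 to 6.36). IFI6, a small membrane protein induced by type I interferon, had 572 CPM in T20 and 115 CPM in T10 cells (4.99-fold higher in T20, interval 4.53 to 5.52). Their length-relative differences were 1.78 and 1.76, against 2.25 and 2.22 as measured. IFI27, another small membrane protein of the group, had 124 CPM in T20 and 51.2 CPM in T10 cells.

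The promoters of ISG15 and IFI6 are shown because their transcripts moved furthest in the group, and that of BST2 because a promoter of the same kind belongs to a gene that did not pass 2-fold. They are from RefSeq on GRCh38.p14, 250 bases before to 50 after the start of the transcript, 5′ to 3′, with ISG15 at chr1:1013247-1013546, plus strand, IFI6 at chr1:27672143-27672442, minus strand and BST2 at chr19:17405581-17405880, minus strand. Capitals mark the fixed letters of GAAANNGAAA, the core of the interferon-stimulated response element, searched on both strands.
ISG15: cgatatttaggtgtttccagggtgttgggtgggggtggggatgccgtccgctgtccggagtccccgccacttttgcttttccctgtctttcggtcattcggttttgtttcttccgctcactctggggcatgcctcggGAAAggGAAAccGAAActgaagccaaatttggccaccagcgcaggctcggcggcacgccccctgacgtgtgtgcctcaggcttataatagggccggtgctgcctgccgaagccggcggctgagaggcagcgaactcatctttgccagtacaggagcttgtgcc
IFI6: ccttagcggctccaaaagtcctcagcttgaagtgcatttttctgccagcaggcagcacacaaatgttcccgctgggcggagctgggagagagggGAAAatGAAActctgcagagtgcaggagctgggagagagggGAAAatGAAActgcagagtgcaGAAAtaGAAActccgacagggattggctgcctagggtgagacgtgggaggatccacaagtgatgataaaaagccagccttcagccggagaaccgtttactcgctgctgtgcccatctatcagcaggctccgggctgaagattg
BST2: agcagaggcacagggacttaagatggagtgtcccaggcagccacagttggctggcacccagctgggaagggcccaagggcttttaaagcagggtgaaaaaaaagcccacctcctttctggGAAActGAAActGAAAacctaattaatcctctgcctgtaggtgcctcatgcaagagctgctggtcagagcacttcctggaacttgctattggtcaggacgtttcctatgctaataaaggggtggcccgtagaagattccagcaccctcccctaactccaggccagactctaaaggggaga
ISG15 and BST2 each hold 2 matches that overlap, and IFI6 holds 3 separate ones. The motif is in 3.57% of the 35116 promoters in the table and in 4.07% of the 3366 measured genes that have a promoter there. It is in 14 of the 15 measured members of the interferon list with a promoter there, which describes the list and not the step. BST2, a membrane protein that tethers budding virus, had 408 CPM in T20 and 431 CPM in T10 cells, so the same letters stood before genes that passed 2-fold and before one that did not.

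Of the 18 measured members of the interferon list, 3 were higher and 0 lower by the 2-fold rule, where 2.8% of all measured genes were higher. Their median difference was 0.41 and their length-relative median 0.53, with 16 of the 18 above 0. The 3 were ISG15, IFI6 and IFI27. IFIT1, IFIT2 and IFIT3, which bind viral RNA, lay just under the limit with 90.04 and 43.4 CPM, 61.1 and 25.6 CPM and 76.9 and 34.2 CPM in T20 and T10, as did IFITM1 (233 and 119 CPM), which blocks viral entry at membranes. With TMM factors these 4 passed it, and 7 of the 18 were higher. IFITM3, a relative of IFITM1, had 1703 CPM in T20 and 1122 CPM in T10 cells, and reads of the 3 IFITM genes are uncertain, since they share 47.0 to 70.1% of their transcript ends with other genes. MX1, an antiviral GTPase, had 46.1 CPM in T20 and 22.3 CPM in T10 cells and was not measured over all cells.

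In S2 cells more of the interferon list passed 2-fold. There 6 of 20 measured members were higher and 0 lower, where 3.39% of all genes measured in S2 were higher. Their median was 0.55 and their length-relative median 0.66. ISG15 had 447 CPM in T20 and 64.0 CPM in T10 cells within S2 (6.98-fold higher in T20, interval 5.61 to 8.78), and IFI6 had 793 CPM in T20 and 163 CPM in T10 cells. In S3 cells ISG15 had 53.3 CPM in T20 and 25.1 CPM in T10 cells, with a fold of 2.13 whose interval, 0.940 to 5.42, includes 1, and in S4 cells it had 178 CPM in T20 and 50.8 CPM in T10 cells. The list's median was -0.010 in S3 (16 measured, 3 higher), 0.085 in S4 (14 measured, 3 higher and 1 lower) and 0.50 in unlisted cells (18 measured, 4 higher). Over all measured genes 4.44% were higher in S3, 3.84% in S4 and 3.46% in unlisted cells, and 9.05% were lower in S4. IFI27 was the exception to the S2 pattern, with 41.6 CPM in T20 and 34.1 CPM in T10 cells in S2, 302 and 141 CPM in S3 and 254 and 110.5 CPM in S4. Whether the states differ in this respect was not tested.

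After each cell was thinned to 1000 UMIs, the interferon list gave a mean of 5.83 UMIs per T20 cell (1102 cells) and 4.03 per T10 cell (1695 cells), with medians of 5 in T20 and 4 in T10. Without thinning the medians were 12 in T20 and 7 in T10, and 359 T20 and 291 T10 cells were too shallow to be thinned. The richest decile of cells held 26.5% of these UMIs in T20 and 25.9% in T10, and the highest cell had 61 in T20 and 33 in T10. The share held by the richest cells was thus similar in both libraries while the mean differed.

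Along the escalation the interferon genes had an earlier peak. In order of dose from C to T320, ISG15 had 77.4, 256.1, 209, 79.5, 51.2, 281, 37.6, 57.0, 49.2 and 57.0 CPM. Its T20 level was close to that of T1 and the highest of the 10. IFI6 had 123, 1096, 1668, 248, 115, 572, 30.7, 29.2, 18.8 and 21.2 CPM, so that its T20 level was below those of T1 and T2.5. Within S2 alone, ISG15 had 122 CPM in T2.5, 70.3 in T5, 64.0 in T10 and 447 in T20. In S4 cells of T40 it was 43.5 CPM, below the 178 CPM of T20.

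**Figure D3:**
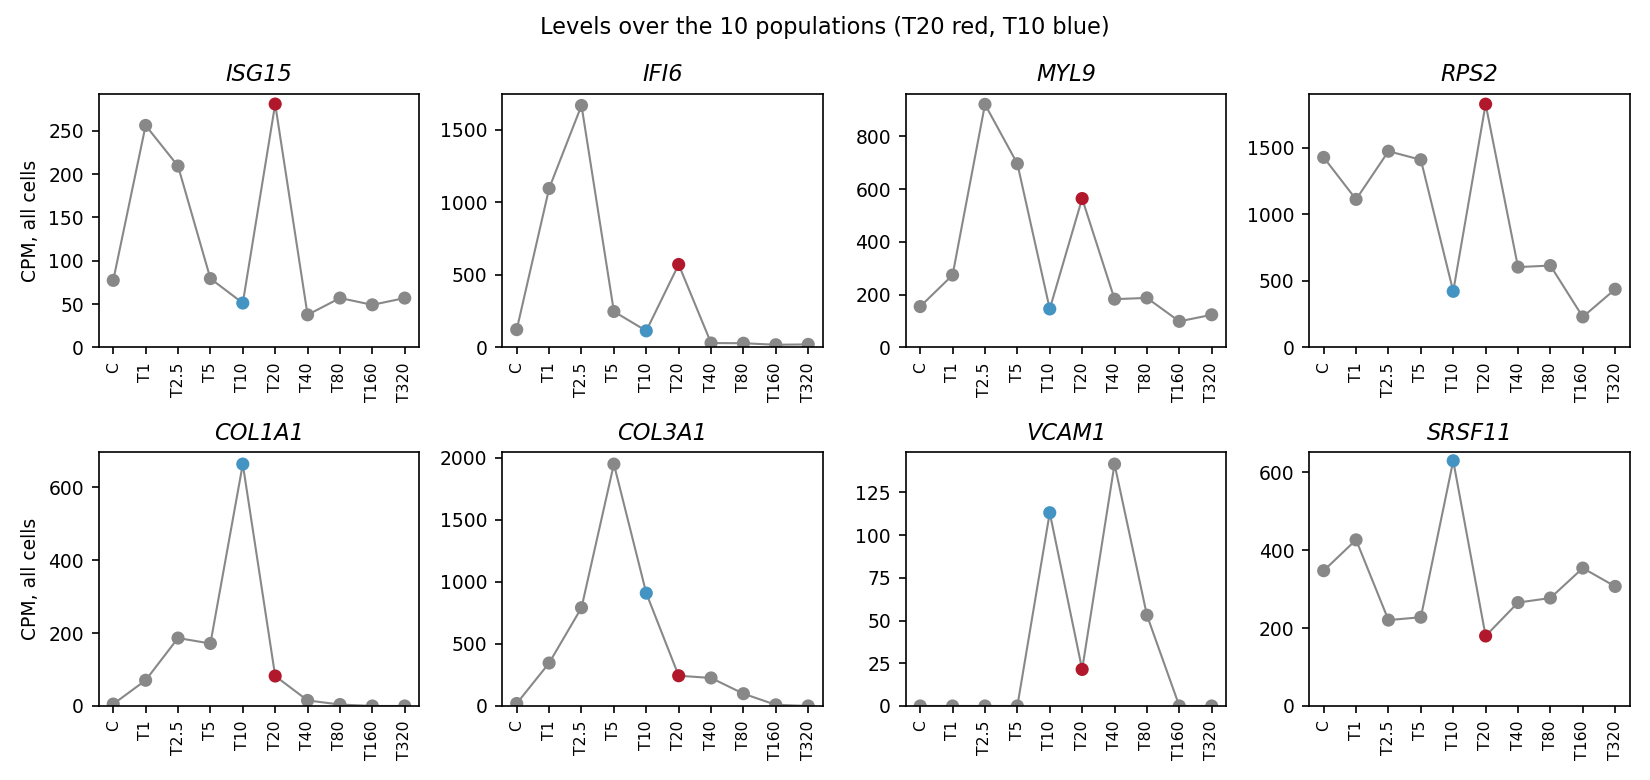
CPM over all cells of 8 genes in the 10 populations in order of dose, with T20 in red and T10 in blue. ISG15 and RPS2 have their highest value in T20, COL1A1 and SRSF11 have theirs in T10, and VCAM1 has 21.4 CPM in T20 between 113 CPM in T10 and 142 CPM in T40.

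Genes of MHC class I presentation, which display peptides of the cell to T cells, had a median of 0.59 over 8 measured members. All 8 were above 0 and 1 was past 2-fold, where 2.8% of all measured genes were higher. HLA-C, a heavy chain, had 316 CPM in T20 and 151 CPM in T10 cells (2.09-fold higher in T20, interval 1.90 to 2.296). HLA-B, another heavy chain, had 510.2 CPM in T20 and 301 CPM in T10 cells and B2M, the light chain of every class I molecule, 1164 CPM in T20 and 909 CPM in T10 cells. CALR (636 and 341 CPM) and PDIA3 (379 and 219 CPM), chaperones of the loading complex, were closest below the limit. In S2 cells 3.39% of all measured genes were higher. Of this list 3 of 8 passed there: HLA-C (323 and 118 CPM in T20 and T10), HLA-B (531 and 216 CPM) and CALR (701 and 310.4 CPM). The length-relative median was 0.62 over all cells. HLA-B and HLA-C share 11.5 and 19.6% of their transcript ends with other genes, so the division of reads is uncertain.

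Genes of the actin cytoskeleton differed among themselves. MYL9, the regulatory light chain of contractile myosin, had 564 CPM in T20 and 146 CPM in T10 cells (3.87-fold higher in T20, interval 3.54 to 4.23), and its length-relative difference was 2.01. It was higher in all 3 states, with 534 CPM in T20 and 84.2 CPM in T10 cells in S2, 359 and 163 CPM in S3 and 1224 and 340.2 CPM in S4. TMSB10, a thymosin that binds actin monomers, had 2212 CPM in T20 and 609.8 CPM in T10 cells (3.63-fold higher in T20, interval 3.47 to 3.79).

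ACTA2, the actin of smooth muscle and myofibroblasts, differed within S2 more than over all cells. Over all cells it had 475 CPM in T20 and 423 CPM in T10 cells, a difference of 0.16. Within S2 it had 444 CPM in T20 and 99.5 CPM in T10 cells (4.46-fold higher in T20, interval 3.71 to 5.38), while S4 cells, where it was abundant, had 1555 CPM in T20 and 1582 CPM in T10 cells and were fewer in T20. Its listed change had a mix part of -137 CPM and a within-state part of 219.8 CPM. ACTG2, the smooth-muscle gamma actin, had 74.96 CPM in T20 and 13.9 CPM in T10 cells in S2 and 55.0 and 23.5 CPM over all cells. S2 cells of T5 had 1936 CPM of ACTA2 and 195 of ACTG2, so the S2 levels of T20 lay between those of T5 and T10.

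The contractile programme did not move as a whole. Over all cells TAGLN, transgelin, had 886 CPM in T20 and 774 CPM in T10 cells, and TPM2, a tropomyosin, had 363 and 233 CPM. Within S2 TAGLN had 846 and 494 CPM and TPM2 356 and 187 CPM, differences of 0.76 and 0.90. TPM1, another tropomyosin, went the other way there, with 345 and 510 CPM. CALD1, caldesmon, an actin-binding brake on myosin, fell to 883 CPM in T20, against 2167 CPM in T10 (2.45-fold lower in T20, interval 2.36 to 2.55), and was lower in S2, S3 and S4 alike. Of 13 measured genes of the mesenchymal list, 1 was higher and 1 lower, beside 2.8% and 3.86% of all measured genes. The list's median was 0.16. VIM, the mesenchymal intermediate filament, had 1408 CPM in T20 and 1512 CPM in T10 cells. AXL, a receptor kinase, had 251 CPM in T20 and 139 CPM in T10 cells.

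Of 15 measured S100 genes and annexins, which bind calcium, 4 rose and 0 fell, where 2.8% of all measured genes were higher. Their median was 0.58 and their length-relative median 0.22. S100A6 had 2042 CPM in T20 and 654 CPM in T10 cells (3.12-fold higher in T20, interval 2.99 to 3.26), S100A10 920.0 CPM in T20 and 375 CPM in T10 cells, and ANXA2, the annexin that S100A10 binds, 2664 CPM in T20 and 1289.7 CPM in T10 cells. S100A2 had 668 CPM in T20 and 283 CPM in T10 cells. In S2 cells 3 of 15 passed, where 3.39% of all measured genes were higher. S100A10 had 712 and 228 CPM in T20 and T10 in S2. Relative to genes of like length 1 of the 15 stayed past 2-fold, S100A6.

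Cytoplasmic ribosomal protein genes were higher as a block. All 76 measured members were above 0, with a median of 0.76, and 23 passed 2-fold, where 2.8% of all measured genes were higher. The list of 78 genes took 15.2% of UMIs in T20 and 9.13% in T10, which was the lowest of the 10 populations, next to 12.1% in T5 and 15.4% in T40. RPS2, of the small subunit, had 1829 CPM in T20 and 422 CPM in T10 cells (4.33-fold higher in T20, interval 4.12 to 4.57), RPLP1, of the large subunit's stalk, 4163 CPM in T20 and 1539.9 CPM in T10 cells, and RPL28, also of the large subunit, 3566 CPM in T20 and 1699 CPM in T10 cells. Ribosomal protein transcripts are short, and the length-relative median was 0.54 with 9 of 76 past 2-fold. They also have many processed copies: 59 of the 76 share over 10% of their transcript ends with other genes (RPS2 53.5%), and the others had a median of 0.64. The list's medians within the states were 0.84 in S2, 0.73 in S3 and 0.65 in S4. Per cell thinned to 1000 UMIs, the mean was 151 UMIs in T20 and 89.5 in T10 (medians without thinning were 383 and 162).

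Nuclear genes of the respiratory chain were also above 0 in 42 of 42 cases, with 8 past 2-fold and a median of 0.52 (length-relative 0.25, 5 past 2-fold). Over all measured genes 2.8% were higher. NDUFB9, NDUFB2 and NDUFA11, subunits of complex I, had 787 and 296 CPM, 491 and 203 CPM and 189 and 75.4 CPM in T20 and T10, and UQCR11, of complex III, had 153 and 53.6 CPM. NDUFA11 and UQCR11 share 28.1 and 14.4% of their transcript ends with other genes. Of the 42, 13 share over 10%, and the 29 others had a median of 0.51 with 4 past 2-fold. The 13 mitochondrially encoded genes had a median of -0.25 and a length-relative median of -0.56. MT-ATP8, a subunit of ATP synthase, fell to 1616 CPM in T20, against 4618 CPM in T10 (2.86-fold lower in T20, interval 2.78 to 2.94), and the other 12 did not pass 2-fold. Its transcript overlaps that of a neighbouring gene, so the division of reads is uncertain. Of the 13, 3 were above 0. Reads of this list are uncertain as a whole, since 10 of the 13 share over 10% of their transcript ends with other genes. The 3 others had a median of -0.027, close to 0. The nuclear and mitochondrial lists had medians of opposite sign, also with TMM factors (0.68 and -0.084), but the mitochondrial value rests mostly on genes with uncertain reads.

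Among enzymes of central metabolism, all 14 measured glycolytic genes were above 0, with a median of 0.46 (length-relative 0.68), and 3 passed 2-fold. Over all measured genes 2.8% were higher. GAPDH had 2074 CPM in T20 and 946 CPM in T10 cells, ALDOA (aldolase) 267 CPM in T20 and 119.8 CPM in T10 cells and TPI1 (triose-phosphate isomerase) 466 CPM in T20 and 226 CPM in T10 cells. These 3 share 29.2 to 59.4% of their transcript ends with other genes. ENO1 (enolase), which shares 9.36%, had 1368 and 788 CPM, and LDHA (lactate dehydrogenase) 195 and 185 CPM. Of 12 measured targets of NRF2, the transcription factor of oxidative stress, 2 passed, the ferritin chains FTH1 (4145 and 1859 CPM in T20 and T10) and FTL (1992 and 911 CPM), which share 30.7 and 38.9% of their transcript ends with other genes, with a list median of 0.49. NQO1, a quinone reductase, had 198 CPM in T20 and 99.9 CPM in T10 cells and reached 282 and 117 CPM within S2. GPX3, a secreted glutathione peroxidase, had 359.7 CPM in T20 and 108 CPM in T10 cells (3.32-fold higher in T20, interval 2.99 to 3.69), and MT1G, a metallothionein, 186 CPM in T20 and 51.0 CPM in T10 cells. CRYAB, a small heat shock protein, had 87.0 CPM in T20 and 17.1 CPM in T10 cells, and among the states its level was highest in S3 (377 and 107 CPM).

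**Figure D4:**
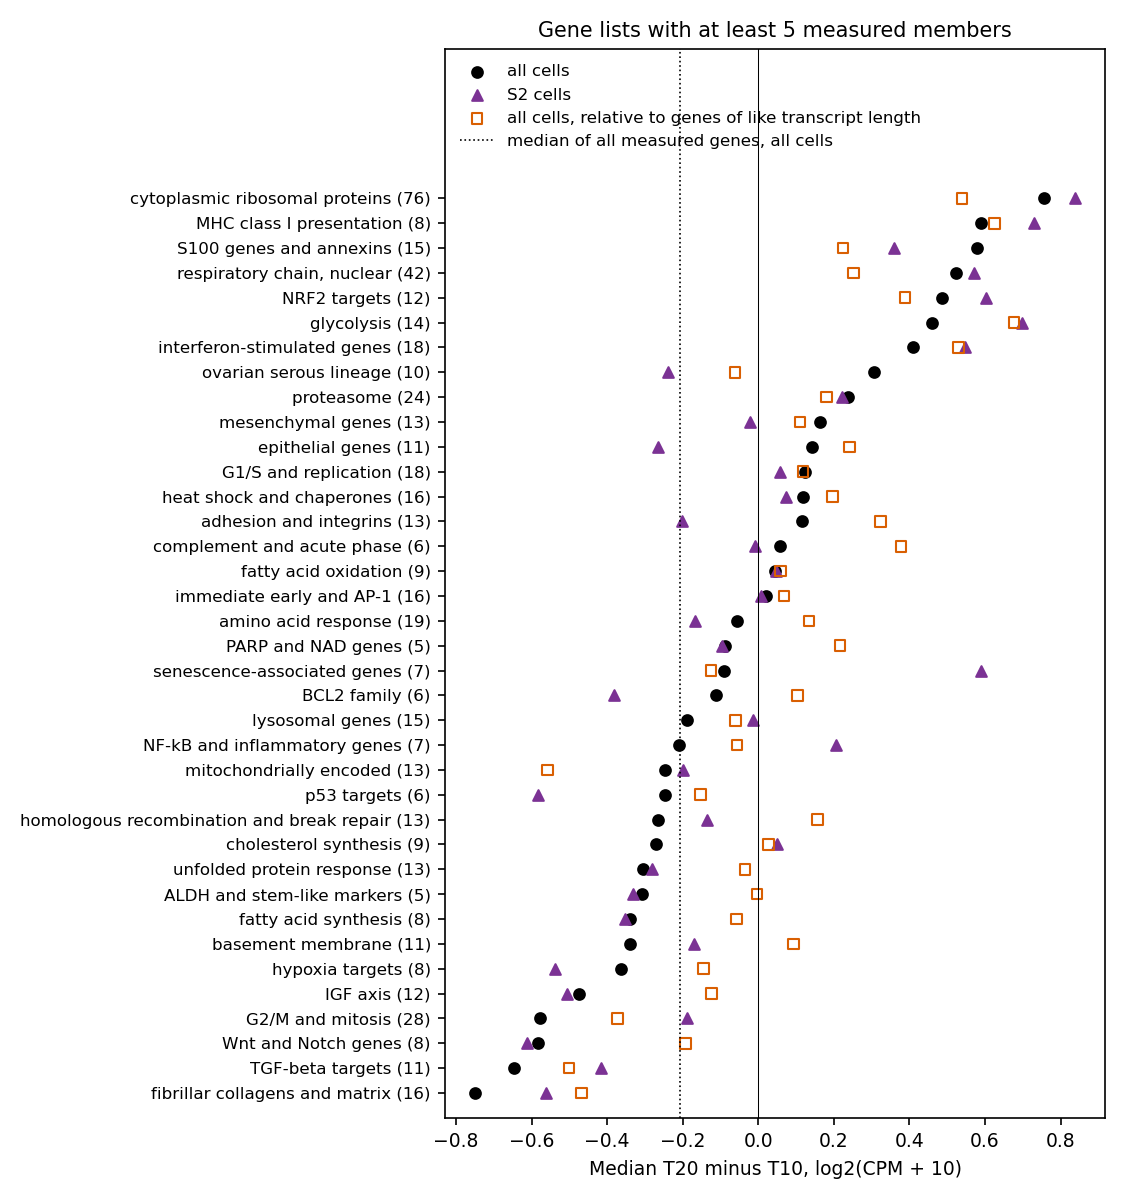
Median difference (T20 minus T10, log2(CPM + 10)) of the gene lists with at least 5 measured members, number in parentheses, over all cells, in S2 cells and relative to genes of like transcript length. Ribosomal proteins have the highest all-cell median (0.76) and fibrillar collagens and matrix the lowest (-0.75), and the dotted line is the median of all measured genes (-0.21).

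Fibrillar collagens and the proteins that build their matrix were lower in T20 in part. Of 16 measured members, 0 were higher and 6 lower, where 3.86% of all measured genes were lower, and the median was -0.75 (length-relative -0.47, 4 lower). COL1A1, the main chain of type I collagen, fell to 82.3 CPM in T20, against 664 CPM in T10 (8.07-fold lower in T20, interval 7.22 to 9.05), the lowest difference of all measured genes (-2.87). COL3A1, of type III collagen, fell to 244 CPM in T20, against 909.7 CPM in T10 (3.73-fold lower in T20, interval 3.48 to 4.0). The fall of COL1A1 and COL3A1 was present in every state. COL1A1 had 64.7 CPM in T20 and 479 CPM in T10 cells in S2, 29.6 and 241 CPM in S3 and 198 and 1732 CPM in S4. COL3A1 had 348 CPM in T20 and 1265 CPM in T10 cells in S2, 51.3 and 226 CPM in S3 and 799.7 and 1909 CPM in S4.

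The genes around them varied in direction. COL6A1 (53.6 and 122 CPM in T20 and T10), COL6A3 (12.9 and 62.9 CPM) and COL5A1 (52.2 and 124 CPM), minor chains of the matrix, were lower, and so was PCOLCE (27.3 and 107 CPM), which helps to trim procollagen. FN1, fibronectin, had 2725 CPM in T20 and 3407 CPM in T10 cells, SPARC, a collagen-binding matrix protein, 1042 CPM in T20 and 1207 CPM in T10 cells, TNC, tenascin, 1196 CPM in T20 and 1076 CPM in T10 cells, and COL12A1, of type XII collagen, 95.7 CPM in T20 and 76.4 CPM in T10 cells, none past 2-fold. TNC and COL12A1 were thus slightly above 0. In S2 COL12A1 had 97.5 CPM in T20 and 45.9 CPM in T10 cells, a difference of 0.94. Of the markers of fibroblasts, 6 of 10 were in the matrix and their summed level was 981 CPM in T20 and 2170.1 in T10. The 4 measured were COL1A1, COL3A1, THY1 (173 and 146 CPM) and ACTA2, and 1 of the 6 was listed at 0 in T20. Which cells these transcripts came from was not tested.

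Along the escalation COL1A1 had 5.24, 70.6, 187, 172, 664, 82.3, 15.3 and 3.99 CPM from C to T80 and was listed at 0 in T160 and T320. COL3A1 peaked earlier, with 1950.3 CPM in T5. Within S2, COL3A1 had 2539 CPM in T2.5, 2873 in T5, 1265 in T10 and 348 in T20. COL1A1 in S2 had 512, 248, 479 and 64.7 CPM in the same populations. In S4 cells COL1A1 had 1732 CPM in T10, 198 in T20 and 16.2 in T40. Both collagens were thus lower in T20 than in T10 in each state, and lower than in T5 within S2.

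After thinning, the matrix list gave a mean of 6.76 UMIs per T20 cell and 9.50 per T10 cell, with medians of 5 in T20 and 7 in T10 (12 in both without thinning). In S2 cells the highest decile of cells held 28.4% of these UMIs in T20 and 37.7% in T10, and the 90th percentile was 10.1 UMIs in T20 and 23.8 in T10. T10 S2 cells thus held a tail of matrix-rich cells that was shorter in T20.

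Genes linked to TGF-beta, a growth factor that drives matrix production, were lower in part. Of 11 measured targets, 2 were lower and 0 higher, where 3.86% of all measured genes were lower. The median was -0.65 (length-relative -0.50), and both lower genes, COL1A1 and TGFBI, are also in the matrix list. LTBP1, which stores latent TGF-beta in the matrix, fell to 51.0 CPM in T20, against 212 CPM in T10 (4.16-fold lower in T20, interval 3.58 to 4.85). CTGF, a matricellular protein, had 1678 CPM in T20 and 2878 CPM in T10 cells. The inhibitors of differentiation ID1 (1372 and 1405 CPM) and ID3 (384 and 276 CPM) did not pass 2-fold.

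Basement membrane chains went both ways, 1 higher and 3 lower of 11 measured, beside 2.8% higher and 3.86% lower of all measured genes. The median of -0.34 became 0.094 relative to length. HSPG2, the proteoglycan perlecan, had 36.4 CPM in T20 and 112 CPM in T10 cells, LAMA5, a laminin chain, 307 CPM in T20 and 657 CPM in T10 cells, and COL4A5, a chain of type IV collagen, 34.1 CPM in T20 and 85.4 CPM in T10 cells. LAMA3, another laminin chain, had 44.9 CPM in T20 and 13.3 CPM in T10 cells over all cells, where it was not measured, and 72.9 and 23.7 CPM in S2. ITGB1, the beta chain shared by most matrix receptors, fell to 345 CPM in T20, against 739.6 CPM in T10 (2.14-fold lower in T20, interval 2.01 to 2.28), and 0 of the 12 other measured adhesion genes passed 2-fold.

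In the insulin-like growth factor axis, 1 of 12 measured genes was higher and 2 were lower, beside 2.8% and 3.86% of all measured genes. The median was -0.47 (length-relative -0.12). IGFBP3, a binding protein that holds the growth factor in the medium, had 248 CPM in T20 and 67.1 CPM in T10 cells (3.69-fold higher in T20, interval 3.23 to 4.22), and among the states it was highest in S2 (452 and 128 CPM in S2, 24.2 and 22.1 CPM in S4). IGF2BP2, an RNA-binding protein, had 148 CPM in T20 and 399 CPM in T10 cells, and GPC3, a glypican that binds growth factors, 12.2 CPM in T20 and 57.4 CPM in T10 cells. IGF2, the ligand, had 3866 CPM in T20 and 7046 CPM in T10 cells over all cells, where it did not pass 2-fold. In S4 cells it fell to 1216 CPM in T20, against 8883 CPM in T10 (7.31-fold lower in T20, interval 6.50 to 8.24), while S3 cells had 5882 CPM in T20 and 5533 CPM in T10 cells. S4 cells of T40 had 2639 CPM. IGF2 shares 76.3% of its transcript end with other genes, so its reads may be split.

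The genes that changed most within S2 included several that differed less in the sum over all cells. TIE1, a receptor kinase related to the angiopoietin receptor, had 5.45 CPM in T20 and 130.2 CPM in T10 cells in S2 (23.9-fold lower in T20, interval 11.9 to 56.1), whereas S3 cells had 351 CPM in T20 and 539 CPM in T10 cells and all cells 74.3 and 165 CPM. It was the lowest difference within S2 (-3.18). S2 cells of T5 had 181 CPM of TIE1. SNCG, gamma-synuclein, had 17.7 CPM in T20 and 114 CPM in T10 cells in S2, and BGN, the matrix proteoglycan biglycan, 45.7 CPM in T20 and 212 CPM in T10 cells. SEMA3D, a secreted guidance factor, had 49.7 CPM in T20 and 221 CPM in T10 cells in S2 and 5.92 and 15.7 CPM in S3. USP22, a deubiquitinase of a chromatin complex, had 151 CPM in T20 and 578 CPM in T10 cells in S2 and 586 and 937 CPM in S3.

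On the higher side in S2, C1QL1, a secreted protein of the C1q family, had 189 CPM in T20 and 39.7 CPM in T10 cells (4.76-fold higher in T20, interval 3.57 to 6.44). CLU, the secreted chaperone clusterin, had 1355 CPM in T20 and 523 CPM in T10 cells in S2 and 153 and 92.8 CPM in S4. CXCL1, a chemokine, had 93.4 CPM in T20 and 36.9 CPM in T10 cells in S2. Of 7 measured inflammatory genes it was the 1 higher, with 72.2 and 24.0 CPM over all cells, and VCAM1 was the 1 lower. Over all measured genes 2.8% were higher and 3.86% lower. SLPI, a secreted protease inhibitor of epithelia, had 1020.3 CPM in T20 and 406 CPM in T10 cells over all cells and 2250.3 and 993 CPM in S3. ZNF90, a zinc-finger protein, had the highest difference of all measured genes, with 480.3 CPM in T20 and 63.1 CPM in T10 cells (7.61-fold higher in T20, interval 6.70 to 8.68) and alike in each state (476 and 59.2 CPM in S2, 436 and 65.8 CPM in S3, 477 and 81.7 CPM in S4). It shares 12.9% of its transcript end with other genes, and its reads are uncertain.

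**Figure D5:**
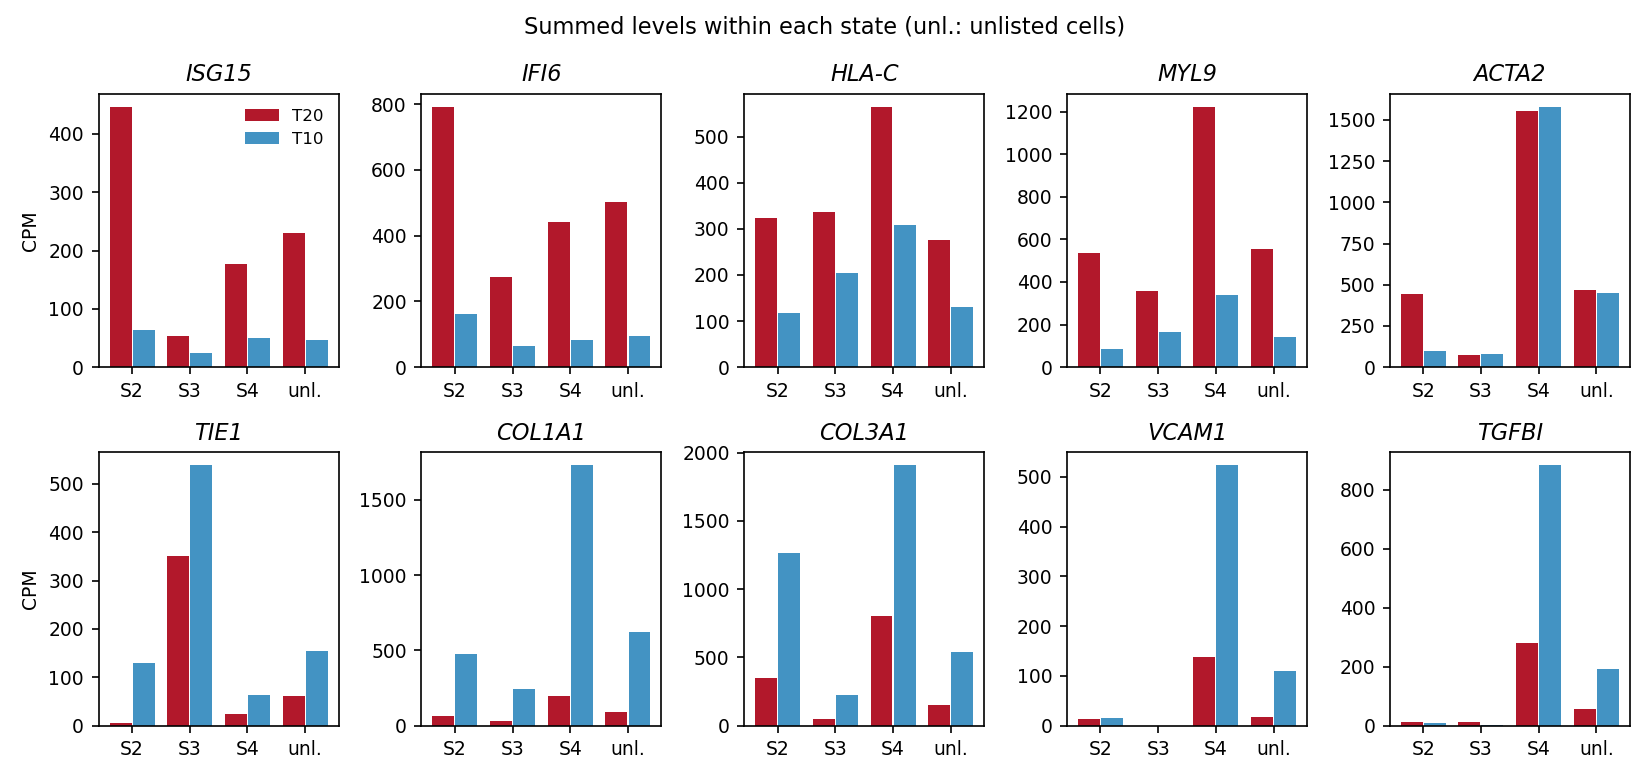
Summed CPM of 10 genes within S2, S3, S4 and unlisted cells, T20 red and T10 blue. COL1A1 and COL3A1 are lower in T20 in each, and IFI6 and ISG15 are higher in each, though the ISG15 interval in S3 includes equal levels. ACTA2 is past 2-fold in S2 only, and VCAM1 and TGFBI have their highest CPM in S4.

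A few genes of S4 joined a lower level within the state to a smaller share of cells. VCAM1, an adhesion molecule, had 137 CPM in T20 and 524 CPM in T10 cells in S4, 14.3 and 14.6 CPM in S2, and 21.4 and 113 CPM over all cells (5.29-fold lower in T20, interval 4.22 to 6.69). TGFBI, an extracellular protein that TGF-beta induces, had 279 CPM in T20 and 884 CPM in T10 cells in S4, 12.9 and 8.35 CPM in S2 and 49.8 and 190.0 CPM over all cells. The mix part was -30.8 CPM and the within-state part -61.3 CPM for VCAM1, and -53.6 and -91.1 CPM for TGFBI. No VCAM1 was listed in C, T1, T2.5 or T5. S4 cells of T40 had 265 CPM of VCAM1 and 279 CPM of TGFBI. COL6A3, a chain of type VI collagen, had 44.4 CPM in T20 and 209.9 CPM in T10 cells in S4. In MYL9 the parts had opposite signs, a mix part of -48.2 CPM and a within-state part of 471 CPM.

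Genes called within S2, S3 and S4 alike numbered 40 higher and 56 lower. The higher ones included IFI6, MYL9, TMSB10, S100A6, GPX3, ZNF90 and several ribosomal proteins, and the lower ones COL1A1, COL3A1, CALD1, ITGB1, LTBP1, PIM1 and SRSF11. Of the 142 genes higher in S2, 70 of 121 measured in S3 (57.9%) and 52 of 117 measured in S4 (44.4%) were also higher there. Over all measured genes the shares higher were 3.39% in S2, 4.44% in S3 and 3.84% in S4. Of the 260 lower in S2, 102 of 222 (45.9%) were lower in S3 and 95 of 210 (45.2%) in S4. Over all measured genes the shares lower were 6.21% in S2, 9.85% in S3 and 9.05% in S4. The states were taken from the same 2 libraries, so they share whatever sets those libraries apart.

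Transcripts of the cell cycle lay mostly in the unlisted cells. Thinned to 1000 UMIs, the G2/M list gave a mean of 4.66 UMIs per unlisted T20 cell and 7.40 per unlisted T10 cell, but 0.777 per S2 cell of T20 and 1.02 per S2 cell of T10. The G1/S list gave 4.05 per unlisted T20 cell and 3.70 per unlisted T10 cell. These unlisted means rest on 498 T20 and 779 T10 cells. The others, 323 in T20 (39.3%) and 177 in T10 (18.5%), were too shallow to be thinned. Over all cells, 1 of 28 measured G2/M genes was lower and 0 higher, where 3.86% of all measured genes were lower, so that the count does not set the list apart. It had a median of -0.58 (length-relative -0.37) with 1 of 28 above 0. KIF20A, a mitotic kinesin, fell to 81.3 CPM in T20, against 199 CPM in T10 (2.45-fold lower in T20, interval 2.16 to 2.78). AURKB, a kinase of chromosome segregation, had 90.04 CPM in T20 and 180.0 CPM in T10 cells. G1/S and replication genes had a median of 0.12 with 0 of 18 past 2-fold, so the lists of the 2 phases differed in sign. MCM6, of the replicative helicase, had 90.5 CPM in T20 and 52.7 CPM in T10 cells and RRM1, of nucleotide synthesis, 71.9 and 114 CPM. Unlisted cells were shallow in T20, with a median of 1488 UMIs against 3423.5 in listed T20 cells, and less so in T10, with 1919 in unlisted and 2024 in listed cells. Unlisted cells numbered 821 in T20 and 956 in T10, and their part in the cell-cycle values was not tested.

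Neither the drug target nor the mutated gene passed 2-fold. PARP1 had 224 CPM in T20 and 238 CPM in T10 cells (ratio of T20 to T10 0.939, interval 0.858 to 1.03). BRCA2 had 17.2 CPM in T20 and 22.3 CPM in T10 cells (ratio 0.770, 0.559 to 1.06) and was below the limit for measurement. Of 13 measured genes of homologous recombination and break repair, 1 was lower, where 3.86% of all measured genes were lower. It was FANCA of the Fanconi pathway (17.2 and 50.8 CPM in T20 and T10), and the list's median was -0.27. The length-relative median was 0.16, of the opposite sign, with 0 lower. MAD2L2, a shieldin subunit that limits the trimming of break ends, had 80.2 CPM in T20 and 43.6 CPM in T10 cells. PARP and NAD genes (5 measured), p53 targets (6) and the BCL2 family (6) had 0 past 2-fold in either direction. No drug transporter was measured over all cells.

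Markers of the line were present on both sides, and the 10 of the list summed to 1471.5 CPM in T20 and 1127 in T10. PAX8, the transcription factor of Müllerian epithelium, had 225 CPM in T20 and 169 CPM in T10 cells, KRT8 754 CPM in T20 and 554 CPM in T10 cells and KRT18 313 CPM in T20 and 282 CPM in T10 cells, keratins of simple epithelia, and 0 of 11 measured epithelial genes passed 2-fold. No leukocyte marker was in the matrix. Endothelial markers summed to 64.4 CPM in T20 and 121 in T10, with 3 of 4 listed at 0 in each, mesothelial markers to 64.9 CPM in T20 and 39.4 in T10, and neural markers to 17.6 CPM in T20 and 5.46 in T10. Whether other cells took part in the results was not tested.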

How the data were processed

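Single-cell inDrop libraries of 10 populations of Kuramochi were used, 1 library each. The deposited matrix holds UMI counts per gene and cell as the authors made them; the submitters' processing notes name Seurat 2.3.2 and human build GRCh38 without saying what each was used for. How its cells were filtered is not stated there, and T20 lists a gene either at 0 or in at least 14 cells, T10 in at least 19. States, and values given as a fraction in the authors' metadata table, are as deposited, and only the states were used from it. Its file name refers to G1, and how cells were listed is not given. All cells were kept and no doublet caller was run.

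Counts were summed per library and state, scaled by the library total, and compared as log2(CPM + 10), with exact conditional intervals for folds and Clopper-Pearson intervals for shares (level 95%). A difference of 2-fold or more was called, with at least 100 UMIs over all populations, 50 CPM in at least 1 sum and, within states, 20 UMIs in both sums together. No test was run, since each dose is 1 library, and the scripts were tested on simulated data. TMM (edgeR 4.0.16) and DESeq2 1.42.0 gave alternative scaling only. Python 3.11.15, numpy 2.4.6, pandas 2.3.3, scipy 1.17.1, matplotlib 3.10.9 and R 4.3.3 were used. Transcript length, and the share of the last 500 bases that is shared with other genes in runs of 31 bases, came from GENCODE 29. The limit for uncertain reads was 10%. Genes past it that are named above without that remark include PDIA3 (26.15%), ANXA2 (14.3%), LDHA (14.15%), MT1G (19.8%), IGF2BP2 (20.5%), CXCL1 (16.8%), KRT8 (32.95%) and KRT18 (35.3%). No source used here gives the counting of reads that match several genes.

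The 47 gene lists (41 of pathways, 6 of markers) and the rule for named genes, which takes the 12 highest and 12 lowest differences over all cells and in S2, the 6 at each end in S4, the 6 with the largest mix and within-state parts and the 4 members of each list furthest from 0, were chosen with earlier results of these data known. PARP1 and BRCA2 were named whatever their values, and list members outside the rule, with IGF2 and VIM, were named after their values were seen, to show each list's range. Some list members are counted but not reported here by name. The length-relative values were added after the data were seen.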

Additional observations from a re-analysis of the deposited data

How the results depend on the processing

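Most values were limited by 1 library a dose, and the intervals cover counting error only. No paired analysis was possible because each population is 1 library and no result comes from a test. Over all cells, 118 genes were higher in T20 and 163 lower. The counts were 204 and 73 with TMM factors, 204 and 73 with DESeq2 size factors, 170 and 264 with a pseudocount of 1, 70 and 80 with a pseudocount of 25, 56 and 55 with a minimum of 200 CPM, and 100 and 67 relative to genes of like transcript length. Within S2, 142 were higher and 260 lower. The counts there were 269 and 129 with TMM factors, 262 and 134 with DESeq2 size factors, 215 and 395 with a pseudocount of 1, 94 and 138 with a pseudocount of 25, 66 and 89 with a minimum of 200 CPM, 219 and 354 without a CPM minimum, 222 and 214 without the genes that share transcript ends, and 166 and 102 relative to genes of like length. In cells with at least 1500 UMIs, 57.2% of T20 cells and 55.3% of T10 cells were listed, a difference of 1.89 points against -8.06 in all cells. Of all cells instead of listed ones, S2 differed by -6.10 points and S4 by -4.80. The cause of these shifts was not tested, apart from the limits that the construction of each setting sets. The other settings (mean of per-cell CPM, without the 5% of cells with most UMIs, mitochondrial genes left out, listed or unlisted cells only) kept these counts within 1.5 times. Of 40 lists with at least 3 measured members, 5 had medians that changed sign with the scaling: PARP and NAD genes, senescence-associated genes, amino acid response, lysosomal genes and the BCL2 family. Settings with 1500 UMIs and like length were chosen after seeing the data.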

Other observations

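Several other lists had few members past 2-fold, beside a median of -0.21 over all measured genes, of which 2.8% were higher and 3.86% lower. Of 24 measured proteasome genes, which degrade tagged proteins, 2 were higher, with a median of 0.24. Wnt and Notch genes had a median of -0.58 with 1 of 8 lower (length-relative -0.19). Immediate early genes of the AP-1 family (16 measured) had a median of 0.021, the unfolded protein response (13) -0.31 and hypoxia targets (8) -0.36, each with 0 past 2-fold in either direction. Of 16 measured heat shock genes and chaperones, 1 was higher, with a median of 0.12. Genes of cholesterol synthesis (9), fatty acid synthesis (8) and fatty acid oxidation (9) had medians of -0.27, -0.34 and 0.043, with 0 past 2-fold, and the first turned to 0.028 relative to length. Complement and acute phase genes had 2 higher (CLU and SLPI) and 1 lower of 6.

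A few of the 56 genes lower in T20 in each of S2, S3 and S4 belong to no list above, and were picked after their values were seen. SRSF11, a splicing factor, had 179.6 CPM in T20 and 629 CPM in T10 cells (3.50-fold lower in T20, interval 3.23 to 3.80), and its T10 level was the highest of the 10 populations, with 228 CPM in T5 and 265 in T40. NKTR, a cyclophilin-related protein of nuclear speckles, had 65.1 CPM in T20 and 216 CPM in T10 cells. PIM1, a survival kinase, had 38.8 CPM in T20 and 136 CPM in T10 cells, and DLC1, a GTPase-activating protein, 85.3 CPM in T20 and 257 CPM in T10 cells. Length-relative differences were -1.45 for SRSF11, -1.15 for NKTR, -1.45 for PIM1 and -1.05 for DLC1.

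Some genes differed widely within S4. There, in sums that rest on 74 T20 cells and 196 T10 cells, FOXD1, a forkhead transcription factor, had 8.08 CPM in T20 and 79.5 CPM in T10 cells, PCLAF, a partner of the replication clamp, 4.04 CPM in T20 and 88.4 CPM in T10 cells, and STX16, a membrane-fusion protein, 20.2 CPM in T20 and 137 CPM in T10 cells. FAM107A, an actin-associated protein, had 105 CPM in T20 and 13.3 CPM in T10 cells there, and CD44, a hyaluronan receptor, 145 CPM in T20 and 53.02 CPM in T10 cells. SULT1E1, an oestrogen sulfotransferase, was listed at 0 in T20 and had 57.4 CPM in S4 cells of T10.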
